A study of Mus musculus with 5 samples.

Results

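The regions described here are IgG mock peaks at gene starts, exons and gene ends that were not shared with the Nr1d1 pull-down. They are the peaks of the IgG mock list whose deposited class is promoter, exon or transcription termination site (TTS) and whose interval touches no peak of the Nr1d1 ChIP list. Of 17111 IgG peaks, 1070 met this rule: 477 at promoters, 405 in exons and 188 at termination sites. The members were chosen by class and by the absence of an overlap, so neither is a finding.

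The series mapped binding of Nr1d1 (REV-ERBα) by ChIP-seq in Th1 cells and held 5 libraries: 3 Nr1d1 ChIP libraries, 1 IgG mock pull-down and 1 input DNA library. All came from wild-type C57BL/6 mice aged 4 to 6 weeks, whose naive CD4 T cells were activated through CD3 and CD28 in culture. IFNγ and IL-12 were added, IL-4 was blocked with an antibody, and the cells were collected after 3 to 4 days. Every library, even the mock and the input, carries the label of the Nr1d1 antibody, so the groups rest on the sample titles. The IgG list and the ChIP list were called over the same input library. With 1 IgG library there is no replicate, so the values below describe this library and no test across samples was possible. The files give no read count per peak and the depth is unknown; intervals cover the counting of peaks only.

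A mock pull-down uses an antibody without a target in the cell and recovers DNA that sticks to beads or antibody, or that shears and amplifies easily. Its peaks are commonly read as enrichment over input that needs no specific factor, and are often subtracted from a factor's peak list. Promoters of many vertebrate genes lie in CpG islands, stretches that are rich in G, C and the dinucleotide CG, are mostly unmethylated and are open in many cell types. Nr1d1 itself is a nuclear receptor that binds DNA at AGGTCA half-sites and represses transcription with the NCoR-HDAC3 complex.

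The sequences under IgG-only promoter peaks are shown for their base composition. They are the parts of the first 6 such peaks, ordered by FDR and then by length, that lie upstream of a transcription start site (TSS) and inside a RefSeq promoter window by at least 100 bases. The runs are from GRCm38.p6, the build the files use as mm10, written on the strand of the gene, and capitals mark each CG. The genes are Kctd8 (chr5:69341710-69341824, minus strand), Rps6ka6 (chrX:111463498-111463599, minus), Suv39h1 (chrX:8074362-8074549, minus), Fgf13 (chrX:59134451-59134686, minus), Anks1b (chr10:90829601-90829780, plus) and Fra10ac1 (chr19:38224153-38224399, minus).
Kctd8: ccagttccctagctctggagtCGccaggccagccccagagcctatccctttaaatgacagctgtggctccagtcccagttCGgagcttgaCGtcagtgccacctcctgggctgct
Rps6ka6: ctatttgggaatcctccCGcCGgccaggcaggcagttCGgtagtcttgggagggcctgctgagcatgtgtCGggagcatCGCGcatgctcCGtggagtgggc
Suv39h1: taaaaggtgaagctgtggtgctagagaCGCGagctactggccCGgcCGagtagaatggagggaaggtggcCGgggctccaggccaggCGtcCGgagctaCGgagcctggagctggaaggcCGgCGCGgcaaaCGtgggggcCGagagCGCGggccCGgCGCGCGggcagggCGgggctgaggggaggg
Fgf13: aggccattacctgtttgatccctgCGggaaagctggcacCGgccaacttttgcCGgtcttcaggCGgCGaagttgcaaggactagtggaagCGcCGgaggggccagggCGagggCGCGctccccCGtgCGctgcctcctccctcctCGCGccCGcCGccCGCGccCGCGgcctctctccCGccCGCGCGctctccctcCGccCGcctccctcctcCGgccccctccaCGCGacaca
Anks1b: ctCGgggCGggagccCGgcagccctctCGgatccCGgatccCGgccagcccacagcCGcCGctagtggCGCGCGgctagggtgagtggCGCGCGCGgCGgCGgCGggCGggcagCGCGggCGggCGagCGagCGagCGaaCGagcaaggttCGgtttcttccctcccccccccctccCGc
Fra10ac1: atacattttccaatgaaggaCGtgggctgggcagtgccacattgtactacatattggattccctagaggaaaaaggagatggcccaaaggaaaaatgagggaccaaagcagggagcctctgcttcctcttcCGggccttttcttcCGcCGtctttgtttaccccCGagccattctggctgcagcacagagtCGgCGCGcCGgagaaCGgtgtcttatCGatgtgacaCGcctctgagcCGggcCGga
The runs differ in density. Kctd8, a subunit of GABA-B receptor complexes, has 3 CG in 115 bases, and Rps6ka6, a kinase of the RSK family, has 7 in 102. Suv39h1, a histone H3 lysine 9 methyltransferase, has 20 in 188, Fgf13, a growth factor homolog that binds sodium channels, has 29 in 236, and Anks1b, a postsynaptic protein, has 29 in 180. Fra10ac1 has 14 CG in 247 bases.

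Promoters poor in CG were also among the IgG-only peaks. These 2 are shown for contrast and were chosen after their values had been seen: Vmn2r58, a vomeronasal receptor (chr7:41872751-41872920, minus strand, FDR 0.00845), and Col3a1, a fibrillar collagen (chr1:45311351-45311449, plus strand, FDR 0.0277). The first shared promoter peak in the same order is given beside them, at Nrg3, a ligand of ErbB4 (chr14:39473089-39473338, minus strand).
Vmn2r58: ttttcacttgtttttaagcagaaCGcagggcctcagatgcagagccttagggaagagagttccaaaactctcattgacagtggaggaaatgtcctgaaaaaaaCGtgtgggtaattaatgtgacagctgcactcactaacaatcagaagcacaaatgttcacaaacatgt
Col3a1: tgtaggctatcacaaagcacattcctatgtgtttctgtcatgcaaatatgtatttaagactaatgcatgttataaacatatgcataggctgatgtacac
Nrg3: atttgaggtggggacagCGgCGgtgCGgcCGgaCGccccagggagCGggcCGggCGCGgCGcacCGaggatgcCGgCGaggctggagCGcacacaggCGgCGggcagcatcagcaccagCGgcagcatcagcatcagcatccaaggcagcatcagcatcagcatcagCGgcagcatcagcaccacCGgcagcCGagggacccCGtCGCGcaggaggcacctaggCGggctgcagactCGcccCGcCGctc
The Vmn2r58 run has 2 CG in 170 bases and the Col3a1 run 0 in 99, against 27 in 250 at Nrg3.

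Over all promoter members with a RefSeq window, the base composition was high in G and C. A window spans 250 bases before to 50 bases after a start site, and 171 of the 477 promoter members overlapped 201 windows. The median window held 68.0% G+C and 26 CG (quartiles 16 to 37). Windows under the 207 of 458 shared promoter peaks that had one numbered 254, with medians of 73.7% and 39 CG. All 32817 windows of the table had medians of 52.7% and 7. Windows with at most 3 CG made up 5.97% of those under members, 2.36% of those under shared peaks and 31.4% of all. Members thus lay between the table and the shared peaks in each of these measures, although the interquartile ranges of members and shared peaks overlapped. Members with no window were not measured.

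**Figure D1:**
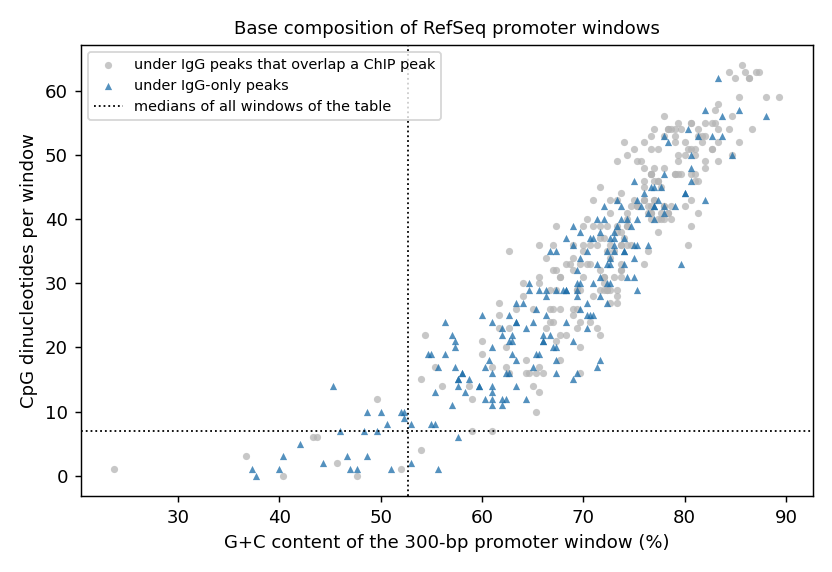
Number of CpG dinucleotides (CG, y axis) against G+C content in percent (x axis) for each RefSeq promoter window under an IgG-only promoter peak (triangles, 201 windows) or under an IgG promoter peak that overlaps a ChIP peak (circles, 254 windows). Dotted lines are the medians of all 32817 windows, 52.7% and 7, and most points of both sets lie above and to the right of them.

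Windows under members held the GC box more often, and the TATA core less often, than the promoters of the table. All motifs were searched on both strands as exact letters. GGGCGG, the GC box, was in 149 of 201 member windows (74.1%, Wilson 95% interval 67.7 to 79.7), against 79.5% of shared and 35.6% of all windows. The core TATAAA was in 7 (3.48%, 1.70 to 7.01), against 3.54% and 13.6%. AGGTCA, the nuclear receptor half-site, was in 29 member windows (14.4%, 10.2 to 20), against 4.33% of shared and 16.3% of all windows. CACGTG, an E-box, was in 7.96%, 13.0% and 7.15% in the same order, and CCAAT in 30.3%, 20.1% and 37.4%. Motifs may overlap one another, a match is not a binding site, and the windows are longer than most peaks, so a match need not lie under the peak.

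How often an IgG peak went without a ChIP overlap depended on its class. Of all 17110 annotated IgG peaks, 70.1% overlapped no ChIP peak. At promoters the share was 51.0% (477 of 935, Wilson 95% interval 47.8 to 54.2), in exons 57.6% (53.9 to 61.2) and at termination sites 64.8% (59.2 to 70.1). Introns, at 70.1%, and intergenic regions, at 72.8%, were at the background or above it. Promoters and exons were below the share of all IgG peaks and their intervals did not reach it, while the interval at termination sites did. With an FDR of at most 0.01 in both lists the 3 shares were 56.2%, 59.7% and 57.5%, so their order was not kept. Introns and intergenic regions were then lower too, at 64.8% and 67.7%.

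Members had a ChIP peak within 1 kb more often than the IgG-only peaks of introns and intergenic regions, but their median distance was not shorter. A ChIP peak within 1 kb was present for 88 members (8.22%, Wilson 95% interval 6.72 to 10.02), among them 56 promoter members (11.7%), against 2.55% (2.28 to 2.87) of those 10920 peaks. The member nearest to a ChIP peak was an exon peak at Gm6275, where the coordinates of the facing ends differed by 2. Each interval as used is 1 base shorter than its stated peak length, so these 2 peaks may adjoin. The next were at Tunar and Camk2n1, with a difference of 27. On the other side, 2 peaks of these classes shared 24 bp with a ChIP peak by the same coordinates, the smallest overlap found. Within 10 kb the shares were 25.5% of members and 21.8% of the IgG-only intron and intergenic peaks. The median distance to the nearest ChIP peak was 33664.5 bp for members and 29502 bp for those intron and intergenic peaks. By class the members had medians of 38227 bp for promoters, 33052 bp for exons and 27902 bp for termination sites.

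**Figure D2:**
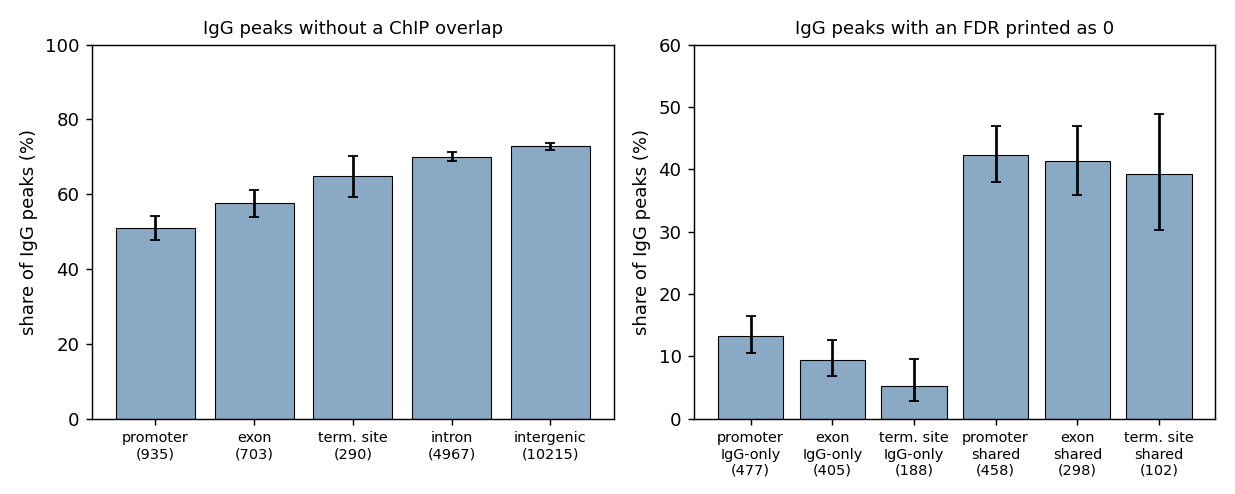
Left, share of IgG peaks without a ChIP overlap in percent for each deposited class (number of IgG peaks in brackets), from 51.0% at promoters to 72.8% between genes. Right, share with an FDR printed as 0 for IgG-only and shared peaks of the 3 classes; bars of IgG-only peaks reach 13.2% at most and those of shared peaks at least 39.2%. Error bars are Wilson 95% intervals.

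IgG-only peaks had higher FDR values and were shorter than shared ones. The FDR of a peak is the authors' value, printed to 6 decimals. It was printed as 0 for 111 members (10.4%, Wilson 95% interval 8.69 to 12.3), against 17.1% of all annotated IgG peaks and 41.6% (38.4 to 44.9) of the 858 IgG peaks of the same classes that overlapped a ChIP peak. By class, 63 promoter, 38 exon and 10 TTS members had this value. Among the 10920 IgG-only intron and intergenic peaks the share was lower, at 5.73% (5.31 to 6.18). The median FDR was 0.00679 at promoters, 0.00996 in exons and 0.0151 at termination sites, against 0.000877, 0.000934 and 0.00131 for shared peaks. Median lengths were 200, 175 and 175 bp, against 250, 250 and 275 bp. A longer peak has more bases in which an overlap can fall, and the part of length in these differences was not tested.

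The promoter class is itself set by closeness to a start site, so the positions of its members are a description. They ran from -993 to 851 bp of the TSS, with few beyond 100 bp downstream, where exon members begin. The deposited distance to the nearest TSS was within 100 bp for 227 of 477 (47.6%, 43.1 to 52.1), beside 229 of 458 shared promoter peaks, and 318 (66.7%) lay upstream. The fullest 100-bp step was just downstream of the TSS, with 121 members, and the step just upstream of it held 106. The 5 nearest were at Cstf2, a polyadenylation factor (0 bp), Hs6st2, a heparan sulfate sulfotransferase (1 bp upstream), Gm20695 (2 bp downstream), Zfp612 and the mitochondrial carrier gene Slc25a13 (both 2 bp upstream). Of these, the peak at Gm20695 had an FDR printed as 0.

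**Figure D3:**
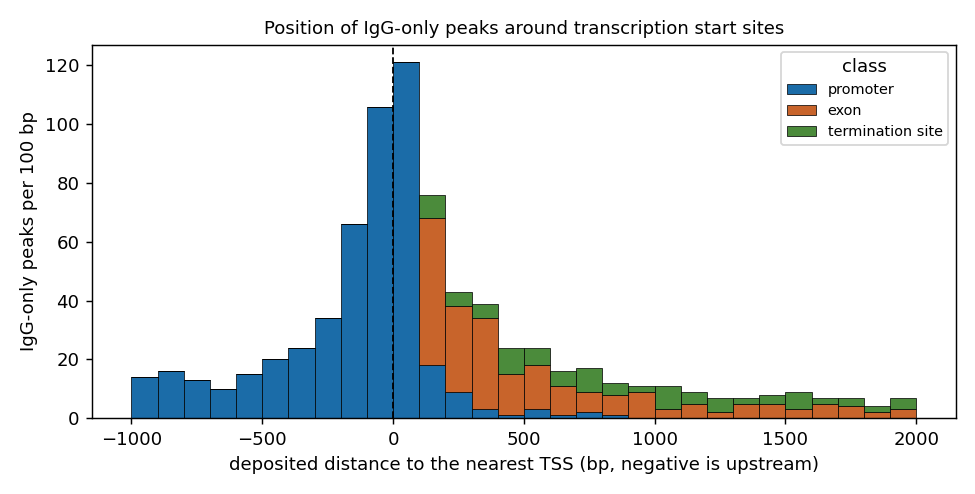
Number of IgG-only peaks per 100 bp (y axis) by deposited distance to the nearest TSS in bp (x axis, negative is upstream), stacked by class, from 1000 bp upstream to 2000 bp downstream. The steps on either side of the TSS are the highest, at 106 and 121 peaks, and exon peaks in this range begin 100 bp downstream.

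The first 10 promoter members in the order of FDR and length all had an FDR printed as 0. The longest of all members, at 725 bp, was 868 bp upstream of Fam19a5, which encodes a secreted brain protein (chromosome 15, 87624001 to 87624724). Kctd8 had a 475-bp peak 25 bp upstream (chromosome 5, 69341351 to 69341824). Otx1, a homeobox factor of forebrain development, had a 400-bp peak 365 bp upstream (chromosome 11, 22001876 to 22002274). Dlgap1, a postsynaptic scaffold, had one 29 bp downstream (chromosome 17, 69969076 to 69969474), and Asic2, an acid-sensing ion channel, one 329 bp upstream. The peaks at Fam19a5, Kctd8, Dlgap1 and Asic2 each had a ChIP peak within 1 kb, at 327, 602, 227 and 777 bp.

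Among the other promoters of these 10, Cap1, which binds actin monomers, had a 350-bp peak 10 bp upstream (chromosome 4, 122885801 to 122886149), with the nearest ChIP peak 69177 bp away. Grb10, an adaptor of insulin receptor signalling, had a 325-bp peak 138 bp upstream (chromosome 11, 12026301 to 12026624), and there the nearest ChIP peak was 302 bp away. Rps6ka6 had a 400-bp peak 55 bp downstream on X, and C430049B03Rik, also on X, a 375-bp peak 23 bp downstream. The last, Gm26542, was assigned a 350-bp peak 59 bp upstream of it (chromosome 11, 50236776 to 50237124) that overlaps the RefSeq gene Ltc4s, the leukotriene C4 synthase.

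Exon members often lay in the part of a gene next to its start. Of 405, 172 (42.5%, 37.7 to 47.3) were up to 1 kb downstream of the nearest TSS, against 64.8% (59.2 to 70.0) of 298 shared exon peaks. A further 109 (26.9%) were more than 10 kb from any TSS, against 13.1% of shared exon peaks. The first exon member in the same order was 450 bp long and lay 1407 bp downstream of the TSS of Pgr, the progesterone receptor (chromosome 9, 8901651 to 8902099). Next came 425-bp peaks at Zfp648 (chromosome 1, 154204951 to 154205374), at Gdf10, a secreted factor of the TGF-β family, 150 bp downstream (chromosome 14, 33923526 to 33923949), and at Gm12606. Gabra5, a GABA-A receptor subunit, had a 350-bp peak 134 bp downstream, with a ChIP peak 427 bp away.

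Other exon peaks among the first 10 were at Fam120c on X (400 bp long) and, each 325 bp long, at Prr18, Pcsk5 and E2f5. Pcsk5 is a proprotein convertase and E2f5 a cell cycle repressor. The peak at E2f5 was 116 bp downstream of the TSS (chromosome 3, 14578626 to 14578949). Each of the first 10 exon peaks had an FDR printed as 0.

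The longest member at a termination site lay in Nr1d1, the gene of the factor that the study pulled down. This 525-bp peak (chromosome 11, 98769501 to 98770024) had an FDR printed as 0 and lay 781077 bp from the nearest ChIP peak. RefSeq places Nr1d1 at 98767932 to 98775377 and its neighbour Thra, the thyroid hormone receptor α gene, at 98740776 to 98769006, so the 2 genes overlap at their ends. The peak began 495 bp beyond the end of Thra and ended 5353 bp before the upper end of Nr1d1, where the RefSeq promoter of the gene lies. The authors' annotation assigned it to a start 664 bp away inside the gene. It lay inside Nr1d1 and outside Thra, and was not at the RefSeq start of Nr1d1.

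The other TTS members with an FDR printed as 0 were shorter. Zfp444, a zinc finger factor, had a 500-bp peak (chromosome 7, 6183901 to 6184399). Pax6, the paired-box factor of eye development, had a 250-bp peak 471 bp downstream of a TSS (chromosome 2, 105676476 to 105676724), R3hcc1 one of the same length, and Yap1, the coactivator of the Hippo pathway, a 200-bp peak. A 325-bp peak assigned to Gm27520 (X, 103481251 to 103481574) overlapped Xist and Tsix, the antisense pair of RNAs of the X inactivation centre. The rest were assigned to Gm4912, Prl8a8, Gm25264 and a clone-named gene on chromosome 1. The class refers to the end of a transcript, while the assigned gene is that of the nearest start, so the 2 need not be the same gene.

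Few members were assigned to genes of the clock, T cell and blood lists, which are short and rare among all IgG peaks too. Nr1d1 was the only one of 27 core clock genes with a member (0.0935% of members, beside 0.0994% of all IgG peaks), and 0 of 9 NCoR-HDAC3 genes and 0 of 32 genes of T cell receptor signalling and costimulation had one, beside 2 and 1 of all IgG peaks. Of 38 T helper genes (0.0935% of members, 0.0292% of all IgG peaks), Maf, a transcription factor of Th2 and follicular helper cells, had a 225-bp promoter peak 41 bp upstream with an FDR printed as 0 (chromosome 8, 115707026 to 115707249). A ChIP peak lay 477 bp from it, so it is no member when a ChIP peak within 1 kb counts as shared. Among 28 genes of other blood cells (0.187% of members, 0.0468% of all IgG peaks), Tlr2, a receptor for bacterial lipopeptides, had a promoter peak of 300 bp (chromosome 3, 83841526 to 83841824) with an FDR printed as 0. Its distance was 92 bp downstream, and the nearest ChIP peak was 238327 bp away. Siglech, of plasmacytoid dendritic cells, had a 125-bp peak 991 bp upstream (FDR 0.0220). Among shared peaks of the same classes the T helper and the other blood cell lists each had 2 peaks (0.233%), more than their shares of members. The NCoR-HDAC3 list had 1 shared peak (0.117%), and the core clock and T cell receptor lists had 0. No member was assigned to any of 19 cell type markers (5 of Th1 cells, 4 of T cells, 4 of B cells, 2 of NK cells, 4 of myeloid cells), and of these only Pax5, a B cell factor, was assigned an IgG peak of any class. A promoter member assigned to Gm12462 (chromosome 4, 44664151 to 44664349, FDR 0.0319) overlapped the RefSeq gene Pax5. Peak lists hold no expression, so the identity of the cells could not be checked.

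Developmental transcription factors accounted for 26 members (2.43%, Wilson 95% interval 1.66 to 3.54) at 20 genes, beside 3.96% of shared peaks of the same classes and 0.935% of all IgG peaks. Of the 26, 7 were at promoters, 13 in exons and 6 at termination sites. Otx1, Otx2, Irx4 and Pax6 were among the genes that had members with an FDR printed as 0. Irx4, a homeobox factor of the heart ventricle, had 3 members within 8249 bp: a 250-bp exon peak 7053 bp from the TSS, a 125-bp exon peak 315 bp downstream (FDR 0.00290) and a 175-bp promoter peak 967 bp upstream (FDR 0.0269).

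Olfactory and vomeronasal receptors, large families that are silent outside sensory neurons, had 28 members (2.62%, 1.82 to 3.76) at 28 genes, 10 of them at promoters and 13 in exons. The share was 0.932% among shared peaks of the same classes and 1.37% among all IgG peaks. With an FDR of at most 0.01 in both lists, a setting under which peaks also join the set because their ChIP peak is dropped, the family had 16 and developmental transcription factors 23. The first in order were Vmn1r-ps107, a pseudogene with a 375-bp promoter peak (FDR 0.000281), Olfr1489 and Olfr589 (both FDR 0.000934) and Olfr1475 (FDR 0.00148). None had an FDR printed as 0. These genes are similar in sequence, and reads that fit several copies may be placed on any of them.

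Housekeeping genes of RNA processing and translation were the nearest genes of 11 members (1.03%), 9 of them at promoters, beside 0.350% of shared and 0.877% of all IgG peaks, and of 5 at an FDR of at most 0.01 in both lists. Eif4g2, a translation initiation factor, had a 275-bp peak 282 bp upstream with an FDR printed as 0 and a ChIP peak 152 bp away, and Eif3e, a subunit of eIF3, a 175-bp peak 126 bp upstream (FDR 0.00384). The name pattern of this list also caught Rps6ka6, which is a kinase, and the pseudogenes Rpl31-ps1 and Rps16-ps2, so 8 of the 11 are genes of the named function.

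The Zfp zinc finger genes had 16 members (1.5%), 9 at promoters, beside 1.40% of shared peaks and 0.555% of all IgG peaks. After Zfp444 and Zfp648 came the promoters of Zfp114 (FDR 0.00136) and Zfp879 (FDR 0.00155). The name pattern also caught Zfp36l2, which encodes an RNA-binding protein. Histone and chromatin enzymes had 6 members (0.561%, beside 0.466% of shared and 0.222% of all IgG peaks), among them promoter peaks of Setd6, a lysine methyltransferase (13 bp downstream), Chd3, a nucleosome remodeller (44 bp upstream), and Kmt2c, a histone H3 lysine 4 methyltransferase (104 bp upstream). A 100-bp exon peak assigned to Kdm5c, 21720 bp away, overlapped the neighbouring gene Iqsec2 instead.

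Ion channels and neurotransmitter receptors had 13 members (1.21%) at 12 genes, beside 1.98% of shared and 1.46% of all IgG peaks. Grin2a, a subunit of NMDA receptors, had 2, a 300-bp promoter peak 604 bp upstream (FDR printed as 0) and a 175-bp exon peak 146 bp downstream (FDR 0.00155). Trpc1 and Trpm1, cation channels, had exon peaks with an FDR of 0.000281 and 0.000549. Cadherins and protocadherins had 10 members (0.935%, beside 0.583% of shared and 0.742% of all IgG peaks), led by an exon peak of Pcdh15, a cadherin of hair cells (FDR printed as 0), followed by Pcdhga2, Pcdh7 and Cdh7. Solute carriers also had 10, beside 1.40% of shared and 0.812% of all IgG peaks, and 4 at an FDR of at most 0.01, with Slc7a10 first (FDR 0.000934), followed by Slc25a13, Slc5a7 and Slc7a9. Ubiquitin and proteasome genes had 6 members (0.561%) beside 1.86% of shared and 0.497% of all IgG peaks, with Usp17la, Trim44, Ube2f and Fbxl14 the first.

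Small RNA genes had the nearest start for 14 members (1.31%), beside 1.28% of shared and 1.98% of all IgG peaks, and for 5 at an FDR of at most 0.01. The first were n-R5s213, Mir7666, n-R5s45 and Mir1901. The n-R5s213 peak overlapped Col4a3, and the n-R5s45 peak lay in Cadps, 118709 bp from the assigned start. The promoter peaks at Mir7666 and Mir543 overlapped the RefSeq genes of these microRNAs themselves. Mir543 was named after its values were seen, because the RefSeq table holds its mature sequences: a 150-bp peak (chromosome 12, 109717176 to 109717324, FDR 0.0123) that overlapped 67 bases of the hairpin and also the gene of Mir666. The 2 mature arms of Mir543 from RefSeq (GRCm38.p6) are given with the seed, bases 2 to 8, in capitals.
mmu-miR-543-5p: aAGUUGCCcgcguguuuuucg
mmu-miR-543-3p: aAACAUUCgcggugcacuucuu
The 5p arm lay whole under the peak, and the 3p arm with 21 of its bases.

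Predicted and clone-named genes were nearest to 301 members (28.1%, 25.5 to 30.9), beside 17.8% of shared peaks of these classes and 49.3% of all IgG peaks. By class they made up 118 promoter, 113 exon and 70 TTS members. A further 622 members had a nearest gene in none of the 17 lists.

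**Figure D4:**
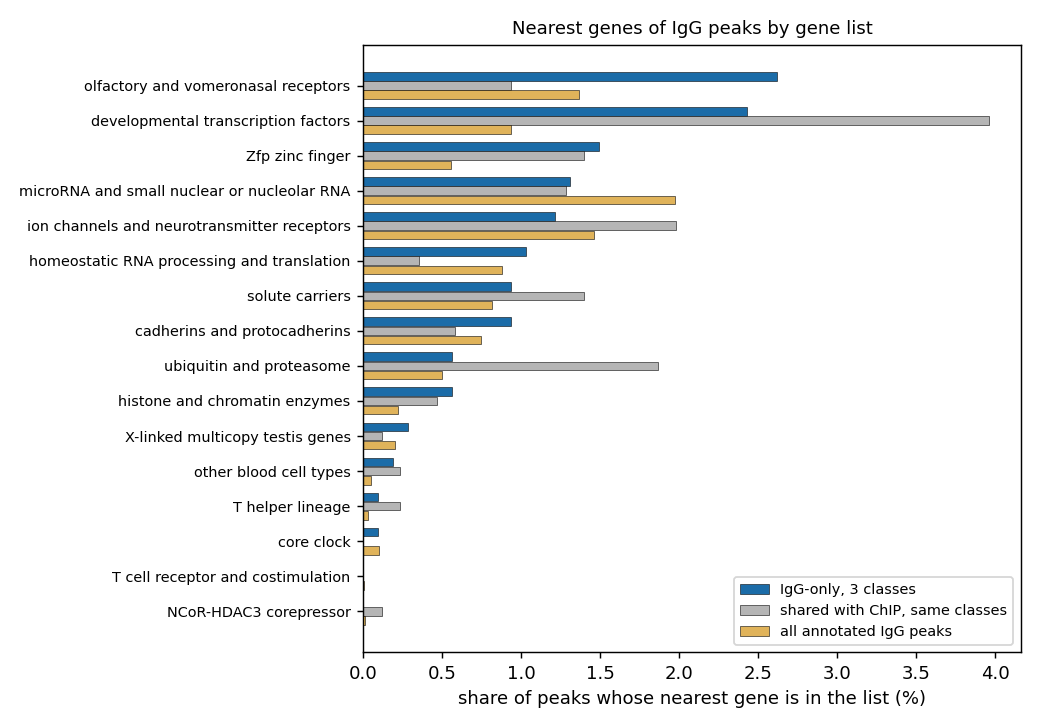
Share of peaks in percent (x axis) whose nearest gene belongs to each of 16 gene lists (y axis), for IgG-only peaks of the 3 classes, shared peaks of the same classes and all annotated IgG peaks; predicted genes are left out. Olfactory and vomeronasal receptors have 2.62% of IgG-only peaks and developmental transcription factors 2.43%, an order that turns at an FDR of at most 0.01 (16 and 23 peaks); developmental transcription factors have 3.96% of shared peaks.

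Few genes had more than 1 member. The 1070 members had 1018 nearest genes, and 49 genes had at least 2, holding 101 members. Peaks that lie close together may stem from 1 enriched stretch and are not independent. Nr2f2, the nuclear receptor COUP-TFII, had 3 exon members within 8499 bp (chromosome 7, 70357876 to 70366374), with FDR values of 0.000281, 0.00996 and 0.0195. Nav2, a protein of neurite growth, had 3 over 443299 bp, from FDR printed as 0 to 0.0248. Aass, an enzyme of lysine breakdown, had 2 exon members, and 4930426D05Rik had 2 promoter members.

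Chromosome X held 132 members (12.3%, Wilson 95% interval 10.5 to 14.4), beside 11.02% of all IgG peaks and 7.11% (5.57 to 9.03) of shared peaks of the same classes. The share was 11.3% at promoters, 12.1% in exons and 15.4% at termination sites. The sex of the mice is not given in the labels. Multicopy testis genes of X had 3 members (0.280%), at Rhox11-ps, Srsx and Rhox4b, beside 0.117% of shared and 0.199% of all IgG peaks. Among autosomes chromosome 7 was the fullest, with 97 members (9.07%) beside 6.19% of all IgG peaks. It was also the fullest for shared peaks of the same classes, at 7.81%.

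**Figure D5:**
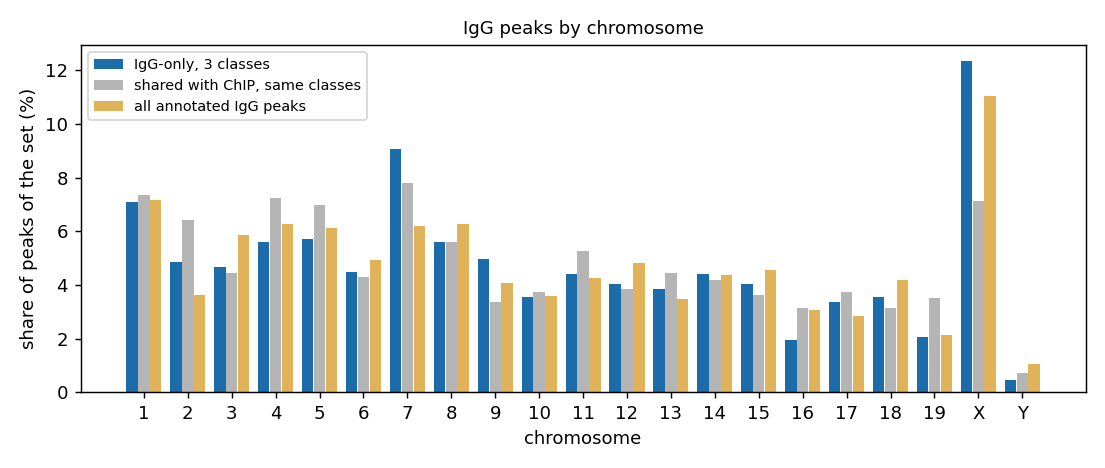
Share of peaks in percent (y axis) on each chromosome (x axis) for IgG-only peaks of the 3 classes, shared peaks of the same classes and all annotated IgG peaks. X holds 12.3%, 7.11% and 11.02% of the 3 sets, and chromosome 7 is the highest autosome for IgG-only and for shared peaks.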

How the data were processed

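Peaks were deposited for the Nr1d1 ChIP (3 libraries) and for the IgG mock (1 library), each over 1 input library. Reads were aligned with BWA to mm10 and peaks annotated with HOMER, per the submitters' processing notes, which name these tools without a role or version; neither the peak caller nor the pooling of libraries is given in the sources used here. Each peak has a q-value (FDR) deposited by the authors, always under 0.05 among the members. Per the file headers the HOMER tables give a score, which equals the peak length in bp, and the distance to the nearest TSS, a class and a gene. The annotated start is 1 above that of the peak list and was used as given. No read depth is stated.

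Overlap was counted from 1 bp, in Python 3.11.15 (numpy 2.4.6, pandas 2.3.3, scipy 1.17.1); 1 IgG peak had no annotation and was left out. The overlap code was tested on simulated intervals. Shares have Wilson 95% intervals; no test was made. Of the members, 82.4% had a nearest gene with a RefSeq symbol. The named genes are the first 10 members per class by FDR and length, all in the clock, T cell and blood lists, the first 4 of each other list, the 6 genes with most members and the 5 promoters nearest to a TSS. Some genes that this rule names are not reported here. Members and lists were chosen with earlier results of these data known. Alternatives changed the FDR limit, the overlap, the chromosomes and the class.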

Additional observations from a re-analysis of the deposited data

How the results depend on the processing

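Of 183 values recomputed under another setting, 144 stayed within 1.5 times (counts) or within the 95% interval of the main value, and 39 moved. With an FDR of at most 0.01 in both lists there were 699 members in place of 1070, with a median FDR of 0.00155, 23 genes with several members, 54.1% of promoter members within 100 bp of a TSS, 24.2% predicted genes and a median of 88627 bp to the nearest ChIP peak. The counts that moved by over 1.5 times there were 88 in place of 188 TTS and 267 in place of 405 exon members, 16 in place of 28 olfactory and vomeronasal receptors, 5 in place of 14 small RNA genes, 5 in place of 11 genes of RNA processing and translation, 4 in place of 10 solute carriers, 1 in place of 3 multicopy testis genes and 1 in place of 2 genes of other blood cells. The share of IgG peaks of the 3 classes without a ChIP overlap was 55.5%. It was 59.2% when only an overlap of at least 50% of the IgG peak counted and 50.9% when a ChIP peak within 1 kb counted, with median distances of 30352 and 38914.5 bp. On autosomes alone 25.1% had a predicted gene. Without members of FDR printed as 0 the median FDR was 0.0123. The motif shares recomputed and the CG median of the promoter windows stayed within their intervals under each of the 4 settings tried. When every IgG peak within 1 kb of a TSS was classed as a promoter peak, peaks from other classes, introns among them, joined the set. There were then 1175 members, with 806 in place of 477 at promoters and 233 in place of 405 in exons. No paired analysis was possible because the lists hold 1 value per antibody and the IgG mock is 1 library, and no replicate could be left out for the same reason.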

Other observations

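These lists were drawn up after the names of the members had been seen. Nuclear receptor genes, the family of Nr1d1, were nearest to 10 members at 8 genes (0.935%), beside 0.350% of shared peaks of the same classes and 0.310% of all IgG peaks. Besides Nr1d1, Pgr and Nr2f2 they were Nr2f1 (an exon peak 26443 bp from the TSS, inside Fam172a), Thrb, the thyroid hormone receptor β gene (promoter, 10 bp upstream, FDR 0.00155), Nr2c2 (promoter, 47 bp downstream, FDR 0.00283), Nr2f6 (promoter, 10 bp downstream, FDR 0.00384) and Hnf4a (termination site, FDR 0.0277). The promoter peaks at Thrb, Nr2c2 and Nr2f6 lay 155377, 57077 and 125852 bp from the nearest ChIP peak.

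Gene segments of antigen receptors had 8 members, 6 of them at termination sites (0.748%, beside 1 shared peak and 40, or 0.234%, of all IgG peaks). Traj40 and Traj53 lie in the T cell receptor α locus, Trdv2-1 and Trdv2-2 among the δ variable segments and Trgv2 in the γ locus, while Igkv18-36, Igkv3-9 and Igkv3-12 belong to the immunoglobulin κ locus of B cells. The lowest FDR was 0.000281, at Igkv18-36. Imprinted genes had 8 members at 6 genes, beside 1 shared peak and 23 (0.134%) of all IgG peaks: Grb10, Cdkn1c and Dio3 (2 each of the last 2), Peg12, Zim1 and Ndn. The peak assigned to Zim1 overlapped the neighbouring Peg3. Ptpn6, the phosphatase SHP-1 of blood cells, had 2 promoter members within 624 bp, with FDR values of 0.00779 and 0.0436. It was picked after the members had been seen, from the 49 genes with at least 2. Others had 2 members closer together, such as Acvr2a (424 bp) and Fras1 (549 bp).

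For part of the members no RefSeq gene under the peak carried the name of the assigned gene. Of 1070 members 893 overlapped a RefSeq gene, and for 180 of these no overlapped gene matched the assigned one by symbol or RefSeq synonym: 50 promoter, 89 exon and 41 TTS members. An assigned gene without a RefSeq symbol cannot match, so this count does not show that the assigned gene is absent from the peak. It includes Gm20695, with a peak 2 bp from its own start, and PCDHA9, where Pcdha9 was among the overlapped genes. Other cases, with an FDR printed as 0, lay 3359, 28167 and 11655 bp upstream of the assigned start. These are Gm12606, where the peak overlapped Cdkn2a, Ttc1, where it overlapped the adrenergic receptor gene Adra1b, and F2rl3, where it overlapped Sin3b, a scaffold of histone deacetylase complexes.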
